A study of Mus musculus with 15 samples.

Results

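The genes of polyamine metabolism were followed in the gastrocnemius, a large muscle of the calf, of young, old and old calorie-restricted (CR) mice. The list held 8 genes: Odc1, Amd1, Srm, Sms, Sat1, Oaz1, Oaz2 and Azin1. Members were all probe sets that the array's annotation gave to exactly 1 of these symbols, without regard to their values. A probe set is a group of short oligonucleotides on the array that together report on 1 transcript. Over the probe sets given a single symbol, the array's annotation names 12394 genes. The rule found 10 probe sets of 6 of the listed genes among the 22626 tested, with 3 for Odc1, 2 each for Oaz2 and Azin1, and 1 each for Oaz1, Srm and Sat1. Another 4 probe sets were shared with a pseudogene and were given no value, 3 of them between Sms and Sms-ps and 1 between Oaz1 and Oaz1-ps. No probe set was named Amd1 in the annotation used here, so Amd1 and Sms were not analysed.

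The polyamines putrescine, spermidine and spermine are small, positively charged molecules that bind RNA and are needed for growth and protein synthesis. Ornithine decarboxylase (Odc1) makes putrescine from ornithine, S-adenosylmethionine decarboxylase (Amd1) supplies the aminopropyl group, and spermidine synthase (Srm) and spermine synthase (Sms) add it in turn. When polyamines are plentiful, ribosomes shift frame on the antizyme mRNAs (Oaz1, Oaz2), and the antizyme made then sends ornithine decarboxylase to the proteasome and slows polyamine uptake. The antizyme inhibitor Azin1 resembles ornithine decarboxylase without its activity and releases it from antizyme, while Sat1 acetylates spermidine and spermine for export or breakdown. In skeletal muscle this pathway is best known for its response to androgen and to growth. Much of its control acts on translation and protein stability, which arrays of mRNA do not measure.

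All animals were male C57BL/6NHsd mice that were housed singly. Young mice (5 months) and old mice (25 months) ate the normal diet, a fixed weekly ration below free feeding, and old CR mice (25 months) were kept on lifelong restriction with a diet enriched in protein, vitamins and minerals. Each group had 5 mice with 1 MOE430A array per mouse, hybridized with biotin-labelled cRNA made from the RNA of whole muscle. The design asks which mRNA levels differ with age on the normal diet, and which differ between the diets at old age. The old group stands in both of these comparisons, so their differences are not independent. Old CR replicates carry the numbers 2, 3, 5, 6 and 7 in the labels.

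The arrays carried the defining signals of muscle, with Acta1 (skeletal actin) at the percentile 99.96 and Ckm (muscle creatine kinase) at 99.98 of all probe sets. Median intensity per array lay between 200.8 and 243.5. The difference between the 3' and 5' control probe sets of Actb and Gapdh, a sign of how complete the labelled RNA was, did move with the groups. Its log2 mean ran from -0.28 to 0.06 in young mice, from 0.05 to 0.27 in old mice and from -0.42 to -0.21 in old CR mice. Young replicate 3, at 0.06, was the young array that reached the range of the old mice. In whole muscle, fewer cells of a type and less RNA per cell cannot be told apart. Summed intensities of 6 fibroblast and tendon markers were 20313 to 31246 in young, 16449 to 24008 in old and 13770 to 18180 in old CR mice, and those of 7 macrophage markers were 3920 to 8725, 5998 to 8608 and 4622 to 6295. In the same order, 4 adipocyte markers summed to 2929 to 6081, 3033 to 8512 and 1719 to 4284. For 5 B and plasma cell markers the sums were 1603 to 3532, 2155 to 6360 and 771 to 3382. For 10 muscle fiber markers they were 244226 to 281892, 192609 to 256839 and 226331 to 311939. Endothelium, Schwann cell and red blood cell markers were also summed and are not given here. The part of these differences in the results was not tested.

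Promoters of 3 genes are shown, of the genes on which the results that follow turn (Odc1 and Oaz2 of the list, and Smox, spermine oxidase, which breaks spermine back down to spermidine). They are the 250 bases before the annotated start in RefSeq on GRCm38.p6, all on the plus strand, at chr12:17544623-17544872 for Odc1, chr2:131491612-131491861 for Smox and chr9:65676298-65676547 for Oaz2. Capitals mark the GC box, searched as GGGCGG and, for the other strand, CCGCCC.
Odc1 promoter: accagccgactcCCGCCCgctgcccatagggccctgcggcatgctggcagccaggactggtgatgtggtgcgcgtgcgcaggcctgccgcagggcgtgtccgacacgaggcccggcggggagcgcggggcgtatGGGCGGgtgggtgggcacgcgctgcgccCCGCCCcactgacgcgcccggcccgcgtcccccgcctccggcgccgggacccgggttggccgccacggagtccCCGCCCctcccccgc
Smox promoter: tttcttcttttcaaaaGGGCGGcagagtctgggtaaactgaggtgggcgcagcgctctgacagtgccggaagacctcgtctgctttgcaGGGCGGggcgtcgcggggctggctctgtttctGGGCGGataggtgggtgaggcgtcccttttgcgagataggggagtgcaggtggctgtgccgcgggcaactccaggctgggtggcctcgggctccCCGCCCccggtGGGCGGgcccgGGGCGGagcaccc
Oaz2 promoter: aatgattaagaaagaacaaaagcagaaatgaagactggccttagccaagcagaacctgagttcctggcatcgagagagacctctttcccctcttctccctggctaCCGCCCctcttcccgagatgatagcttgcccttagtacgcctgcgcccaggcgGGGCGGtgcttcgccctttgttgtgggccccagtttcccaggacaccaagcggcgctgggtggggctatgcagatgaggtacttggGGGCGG
The Odc1 stretch held 4 GC boxes and was 80% G and C, that of Smox held 6 at 68%, and that of Oaz2 held 3 at 58%. A GC box stood in 10756 of 32851 promoters of this length, or 32.7%, and the median G and C content was 52.4%. The E-box CACGTG, the letters bound by Myc and Max, was in none of these 3 stretches and in 6.02% of all promoters. Bases after the start were not searched, so E-boxes there could not be found. Of the other listed genes with a promoter, the same stretch held 1 GC box for Amd1, 2 for Sat1 and 0 for Oaz1. Sms, with more than 1 start, had 0 and 4, and its stretch without a GC box held 1 E-box. These matches describe the letters alone.

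With age, 0 of the 10 probe sets of the listed genes passed limma's test at an adjusted p under 0.05, where 0.265% of all probe sets (60) did. At an unadjusted p under 0.05 there were 2, Odc1 1437711_x_at with a higher mean in old mice and Oaz2 1426764_at with a lower mean, against 15.5% of all probe sets, and the groups overlapped for all 10, where they did not for 3.61% of all. Without young replicate 3, limma called 1 of 10 with age, Oaz2 1426764_at, and 1067 of all probe sets. Odc1 1437711_x_at and Oaz2 1426764_at are both on the authors' list of transcripts changed with age, in the same directions. That list came from values processed by another method (RMA) and from another statistical test. With CR in old mice, 2 of 10 were called, where the share of all probe sets was 4.87%. These were the same pair with the signs turned: Odc1 1437711_x_at fell and Oaz2 1426764_at rose. At an unadjusted p under 0.05 there were 5 of 10, against 21.9% of all. The groups did not overlap for 3 of 10, the third being Odc1 1438761_a_at, against 8.89% of all probe sets. Between old CR and young mice, 0 of 10 were called (0.0884% of all), and 1, Sat1, had an unadjusted p under 0.05 (12.1% of all), while the groups overlapped for all 10 (3.57% of all did not). Median log2 differences over the 10 were 0.01, 0.01 and -0.09 for the 3 comparisons, beside -0.06, 0.06 and -0.01 over all probe sets. The 10 are not independent, since several report on 1 gene.

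**Figure D1:**
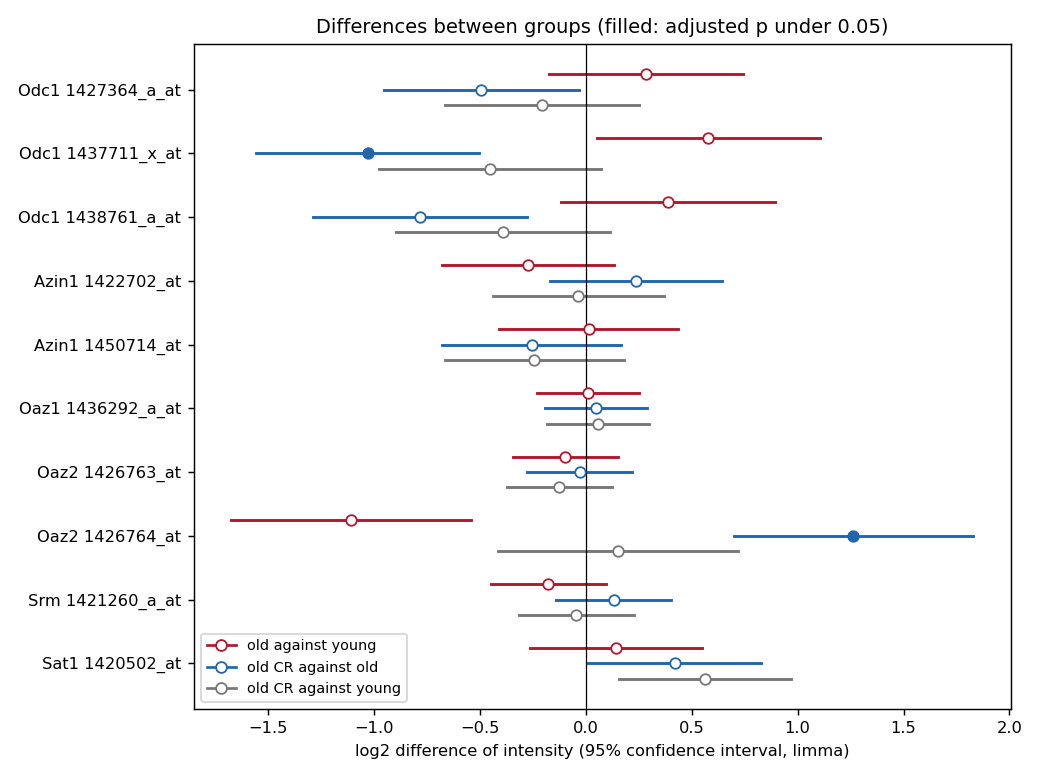
Log2 differences with 95% confidence intervals from limma for the 10 member probe sets, in old against young, old CR against old and old CR against young mice (5 mice per group). Filled points passed an adjusted p under 0.05: Odc1 1437711_x_at at -1.03 and Oaz2 1426764_at at 1.26, both in old CR against old.

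Odc1, whose product catalyses the first and rate-limiting step, had the same order of group means on all 3 of its probe sets, lowest in old CR mice and highest in old mice. On 1437711_x_at the young mice read 1592, 1209, 1671, 1250 and 1095 (mean 1364 ± 253, SD, n = 5). The old mice read 1927, 1823, 2293, 2461 and 1654 (2032 ± 335), and the old CR mice 510, 861, 1271, 1324 and 1247 (1043 ± 350). Every old CR mouse lay below every old mouse, and a single old mouse, at 1654, fell inside the young range. The log2 difference of old CR from old was -1.03 (SE 0.24, 95% interval -1.55 to -0.51, limma adjusted p = 0.0319). The call was lost without any one of old replicates 1, 2, 3 and 4 or old CR replicate 3 (limma adjusted p = 0.0525 to 0.0697), and the difference stayed between -1.14 and -0.79 without any single array. The age difference was 0.58 (SE 0.24, 95% interval 0.05 to 1.10, adjusted p = 0.272), which did not pass. Old CR and young differed by -0.45 (95% interval -0.98 to 0.07, adjusted p = 0.493).

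The other Odc1 probe sets differed less. On 1438761_a_at, the brightest, young mice read 2863, 1923, 2858, 1848 and 2096 (2318 ± 504), old mice 2876, 2683, 3175, 4102 and 2327 (3033 ± 672), and old CR mice 1066, 1375, 2185, 2129 and 2291 (1809 ± 552). Old CR again lay wholly below old, with 2291 against 2327 at the edge, and the difference of -0.78 (SE 0.24) missed the threshold (limma adjusted p = 0.0711). It passed with the 11313 brighter probe sets alone, with median centering and with a robust variance trend (limma adjusted p = 0.0253, 0.0496 and 0.0334). On 1427364_a_at the means were 710 ± 118, 875 ± 195 and 628 ± 167, the groups overlapped, and the CR difference was -0.49 (limma adjusted p = 0.195). Age differences on these probe sets were 0.39 and 0.29 (adjusted p = 0.453 and 0.554). Over the 15 arrays the 3 Odc1 probe sets correlated with each other at r = 0.875, 0.899 and 0.962, values that share sample, array and gene. The suffix of 1437711_x_at marks a probe set with oligonucleotides that also match other sequences, so its level is uncertain as a measure of Odc1 alone.

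The low Odc1 values were not spread evenly over the restricted mice. Old CR replicates 2 and 3 were the lowest of all 15 mice on each Odc1 probe set. Old CR replicates 5, 6 and 7 read 1247 to 1324 on 1437711_x_at, inside the young range and below the old range. Without replicates 2 and 3, a choice made after seeing these values, the CR difference of 1437711_x_at was -0.65 (limma adjusted p = 0.0805). The Odc1 probe sets also correlated with the 3' minus 5' difference, at r = 0.575 to 0.686 over 15 arrays. With that difference in the fit the CR difference of 1437711_x_at was -0.92 (limma adjusted p = 0.812). In that fit 0 of all probe sets were called, with 1461 at an unadjusted p under 0.05 in limma, and the values of the 3' minus 5' difference in old and old CR mice do not overlap.

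**Figure D2:**
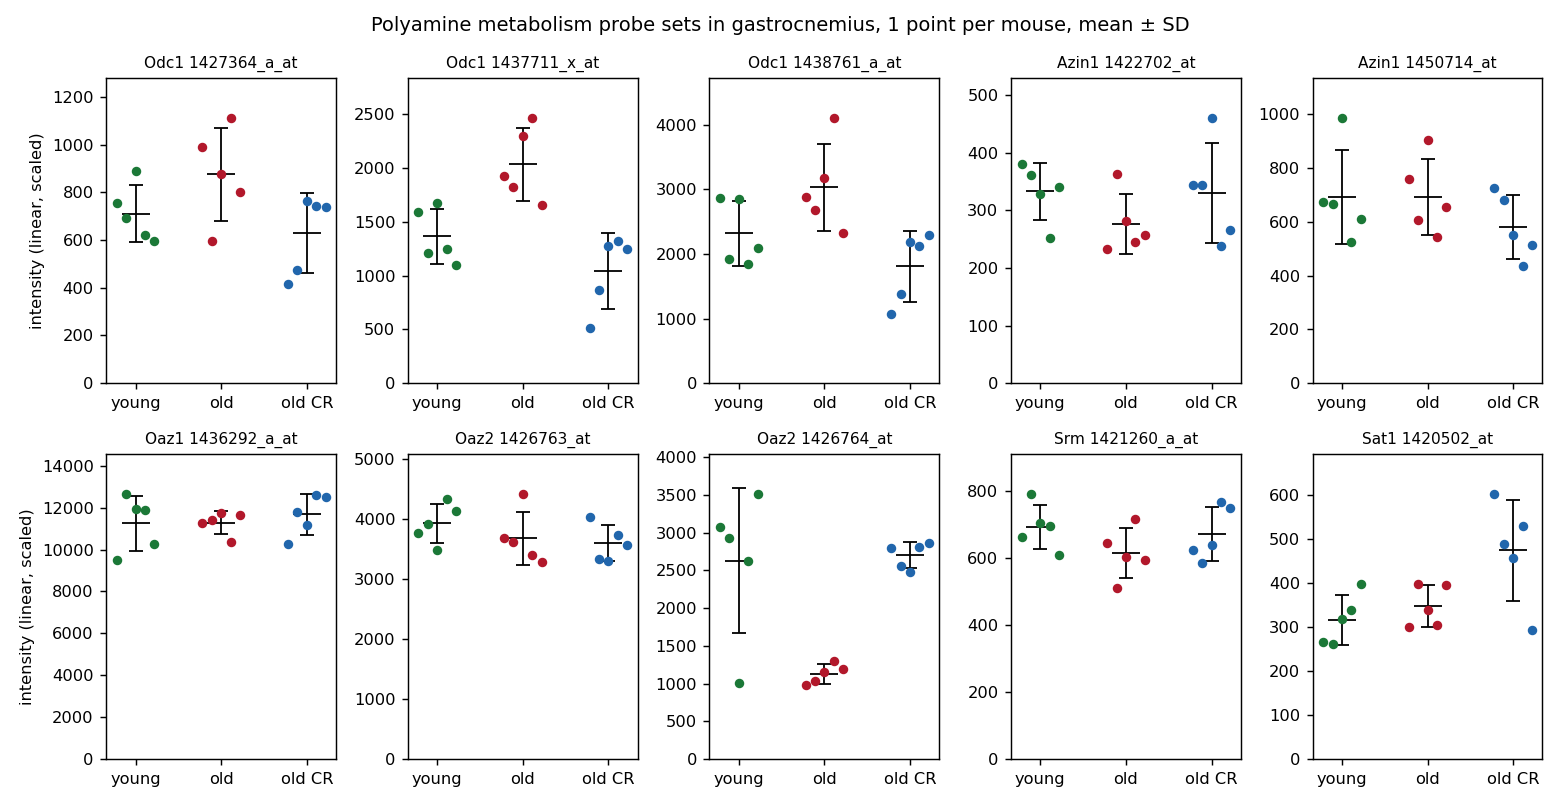
Deposited linear intensity of each member probe set in every mouse, 5 young, 5 old and 5 old CR; each point is 1 mouse and the bars give the group mean and SD. The old CR points of Odc1 1437711_x_at lie at 510 to 1324 and the old points at 1654 to 2461, while the Oaz1 means lie between 11251 and 11681.

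Oaz2, an antizyme, gave different values on its 2 probe sets. On 1426764_at young mice read 3079, 2931, 1013, 2622 and 3516 (2632 ± 961), old mice 975, 1027, 1153, 1300 and 1199 (1131 ± 131), and old CR mice 2803, 2560, 2480, 2817 and 2866 (2705 ± 173). All old CR mice lay above all old mice, 4 young mice read 2622 or more, and young replicate 3 lay with the old mice. The CR difference was 1.26 (SE 0.26, limma adjusted p = 0.0198). The age difference was -1.11 (SE 0.26, limma adjusted p = 0.0804), and without young replicate 3 it was -1.43 (limma adjusted p = 0.000152). Old CR and young differed by 0.15 (limma adjusted p = 0.870).

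On the other Oaz2 probe set, 1426763_at, no such pattern was present. Young mice read 3776, 3919, 3487, 4340 and 4139 (3932 ± 329), old mice 3696, 3617, 4425, 3411 and 3281 (3686 ± 445), and old CR mice 4042, 3338, 3310, 3746 and 3580 (3603 ± 304). The 3 groups overlapped, and the differences were -0.10 with age (95% interval -0.34 to 0.15) and -0.03 with CR (95% interval -0.28 to 0.22). Both intervals leave out the differences of 1426764_at. The correlation between the probe sets was 0.252 over 15 arrays. The level of 1426764_at correlated with the 3' minus 5' difference at r = -0.920 and that of 1426763_at at -0.0989, over arrays that include all 3 groups. With the 3' minus 5' difference in the fit, 1426764_at differed by -0.16 with age and -0.04 with CR (limma adjusted p = 0.993). Young replicate 3, which had the old mice's level on 1426764_at, also had their 3' minus 5' difference.

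**Figure D3:**
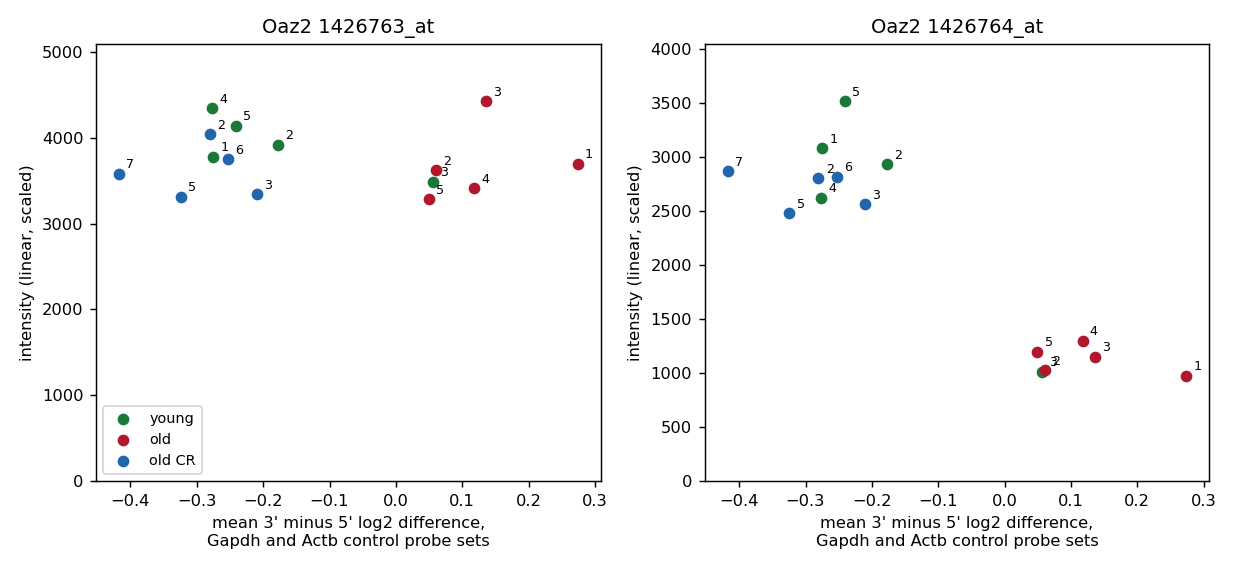
Intensity of the 2 Oaz2 probe sets in each of 15 mice against the log2 difference between 3' and 5' control probe sets of the array, averaged over Actb and Gapdh. On 1426764_at the 5 old mice and young replicate 3, the 6 arrays with a difference above 0, read 975 to 1300 and all others 2480 to 3516, while 1426763_at stays between 3281 and 4425.

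The remaining antizyme and its inhibitor had flat or mixed values. Oaz1, the most widely expressed antizyme, read 11251 ± 1323 in young, 11289 ± 564 in old and 11681 ± 967 in old CR mice, with overlapping groups. Its log2 differences were 0.01 with age (95% interval -0.23 to 0.25), 0.05 with CR (-0.19 to 0.29) and 0.06 between old CR and young (-0.18 to 0.30). Azin1 1422702_at read 333 ± 49.6, 276 ± 51.8 and 330 ± 86.4, and Azin1 1450714_at read 692 ± 175, 694 ± 141 and 582 ± 119. The differences with CR were 0.24 (limma adjusted p = 0.496) and -0.26 (limma adjusted p = 0.483), of opposite sign, and the probe sets correlated at r = 0.190 over 15 arrays. Neither Azin1 probe set was called in any comparison.

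Srm, which joins the aminopropyl group to putrescine, read 693 ± 66.4 in young, 614 ± 74.9 in old and 673 ± 80.6 in old CR mice. The differences were -0.18 with age (95% interval -0.45 to 0.09) and 0.13 with CR (-0.14 to 0.40), with overlapping groups in both. Srm was called in none of the 3 comparisons (limma).

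Sat1, the acetyltransferase that opens polyamine breakdown, had its highest mean in restricted mice. Young mice read 267, 260, 317, 339 and 397 (316 ± 56.2), old mice 299, 398, 339, 305 and 395 (347 ± 47.4), and old CR mice 602, 489, 455, 529 and 293 (474 ± 115). Of the old CR mice 4 lay above every other mouse, and replicate 7, at 293, lay below all old mice. The difference was 0.42 from old (95% interval 0.01 to 0.83, limma adjusted p = 0.213) and 0.56 from young (unadjusted p = 0.0102 and adjusted p = 0.253 in limma). Without old CR replicate 7 these were 0.58 (limma adjusted p = 0.0707) and 0.73. Age alone gave 0.14 (limma adjusted p = 0.764).

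Of 42 other genes of the pathway, 29 had a probe set of their own, each taken by its brightest. With age 0 of 29 were called, beside 0.265% of all probe sets. With CR in old mice 1 of 29 was called, Nfe2l2, a share below the 4.87% of all probe sets, and between old CR and young mice 0, beside 0.0884%. At an unadjusted p under 0.05 there were 2, 5 and 5 of 29 in the 3 comparisons, beside 15.5%, 21.9% and 12.1% of all, and the median differences were -0.00, -0.20 and -0.06. The groups did not overlap for 1 of 29 in each comparison, Smox with age, Nfe2l2 with CR and Myc between old CR and young mice. Of all probe sets, 3.61%, 8.89% and 3.57% did not overlap. Nfe2l2 encodes the transcription factor Nrf2 of the antioxidant response, and read 1220 ± 157 in young, 1513 ± 182 in old and 1000 ± 148 in old CR mice. It fell by 0.60 on the log2 scale with CR (SE 0.14, limma adjusted p = 0.0297), with all old CR mice, at most 1180, below all old mice, at least 1285. The call was lost when any of 6 single arrays was left out, old replicates 2, 4 or 5 or old CR replicates 2, 3 or 6 (limma adjusted p = 0.0543 to 0.0654).

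Group by group, none of the 9 measured genes of arginine and ornithine supply was called. Otc and Asl, enzymes of the urea cycle, had unadjusted p under 0.05 for CR in limma, with means under 100 in each group. Both had lower means in old CR than in old mice. Asl was dim, at the percentile 8.58 of all probe sets, with means of 20.7 in young, 40.6 in old and 13.4 in old CR mice. Old replicates 2 and 3 read 67.0 and 84.0 on Asl, and the other old mice 12.8 to 21.1. Averaged over all Otc probe sets, the CR difference had the other sign, at 0.46 (limma adjusted p = 0.573). None of the 9 genes of the methionine and S-adenosylmethionine cycle was called. Mtap, which recycles the methylthioadenosine left by the synthases, read 700 ± 94.3, 574 ± 59.1 and 673 ± 77.8, with an age difference of -0.28 (limma adjusted p = 0.305). With all probe sets of a gene averaged, Mtap was higher with CR in old mice, at 0.55 (limma adjusted p = 0.0345). Ahcyl1 was lower, at -0.44 (limma adjusted p = 0.0364), and the other genes of this cycle were not called. None of 4 transporters was called, nor were the 3 genes of hypusine, the spermidine-derived residue of eIF5A. Eif5a itself read 8158 ± 259, 8022 ± 625 and 8802 ± 453. Of the regulators, Myc, an activator of Odc1 transcription, read 180 ± 42.1, 176 ± 72.0 and 100 ± 10.1. Its 5 old CR mice lay at 88.0 to 112 and the lowest young mouse at 115, and the difference from young was -0.81 (limma adjusted p = 0.217). Of all probe sets, 3.57% did not overlap in this comparison. Max, the remaining regulator measured, went the other way with CR. It read 183 ± 27.8, 194 ± 67.2 and 250 ± 84.0, with overlapping groups. Otc, Asl, Ahcyl1, Mtap, Eif5a, Myc and Max are named outside the rule for naming genes and were chosen after their values were seen.

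**Figure D4:**
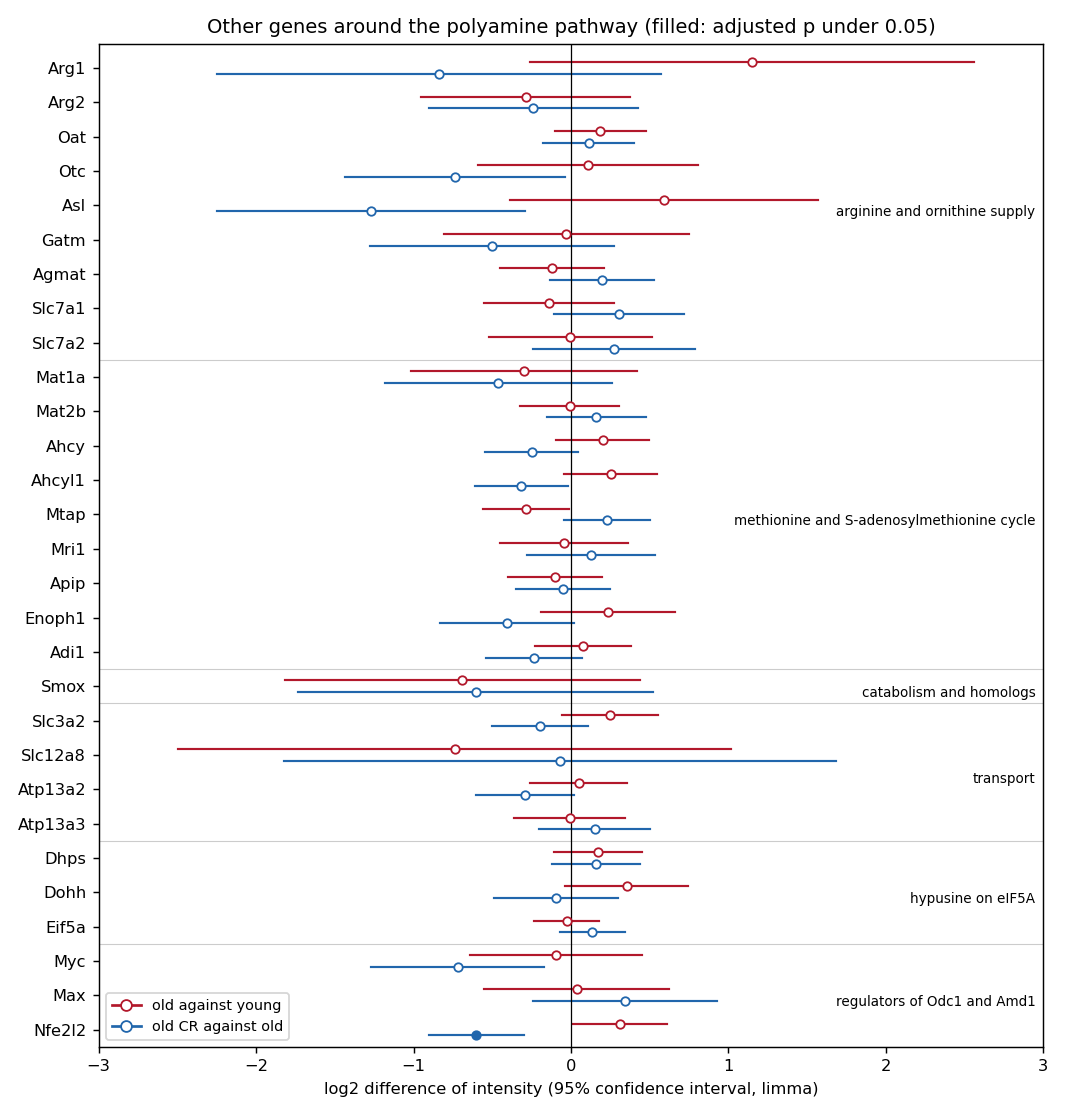
Log2 differences with 95% confidence intervals from limma for the 29 other pathway genes measured, in old against young and old CR against old mice, 5 per group. Nfe2l2 at -0.60 in old CR against old is the filled point, the only one past an adjusted p of 0.05, and the intervals of Smox run from -1.82 to 0.44 with age and from -1.73 to 0.52 with CR.

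Smox was the single polyamine oxidase measured, since Paox had no probe set of its own. Young mice read 6569, 6728, 9681, 5958 and 7253 (7238 ± 1442), old mice 5619, 4178, 5693, 3445 and 3672 (4521 ± 1070), and old CR mice 598, 1738, 6013, 5986 and 5537 (3975 ± 2601). All old mice lay below all young mice. Smox was the 1 of 29 genes without overlap with age, where 3.61% of all probe sets had none. The authors list Smox as lower in old mice, from their RMA values and their own test. The restricted mice were split: replicates 5, 6 and 7 read between 5537 and 6013, and replicates 2 and 3 lay far below all other mice, with 10.1-fold between the highest and the lowest. The age difference was -0.69 (SE 0.53, limma adjusted p = 0.561) in the fit that shares 1 spread over the 3 groups. Fitted on young and old mice alone, the SE was 0.20 and the adjusted p = 0.18 in limma. The CR difference was -0.61 (limma adjusted p = 0.541), and without replicates 2 and 3 it turned to 0.40 (limma adjusted p = 0.297). Old CR and young differed by -1.30 (limma adjusted p = 0.343), or by -0.29 without those replicates.

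The old CR mice with the lowest Smox were those with the lowest Odc1. Replicate 2 had the lowest value of all 15 mice on Smox and on each of the 3 Odc1 probe sets, and replicate 3 the next lowest. The higher of these mice reached 50.5% of the lowest of the other 13 on Smox, and 74.4% to 79.9% on the Odc1 probe sets. As arrays, replicates 2 and 3 correlated with the other old CR arrays at a mean r of 0.941 and 0.949, against 0.949 to 0.955 for replicates 5, 6 and 7. Their summed intensities of 10 muscle fiber markers were 226331 and 284048, against 298093 to 311939. The part of these differences in the Odc1 and Smox values was not tested.

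**Figure D5:**
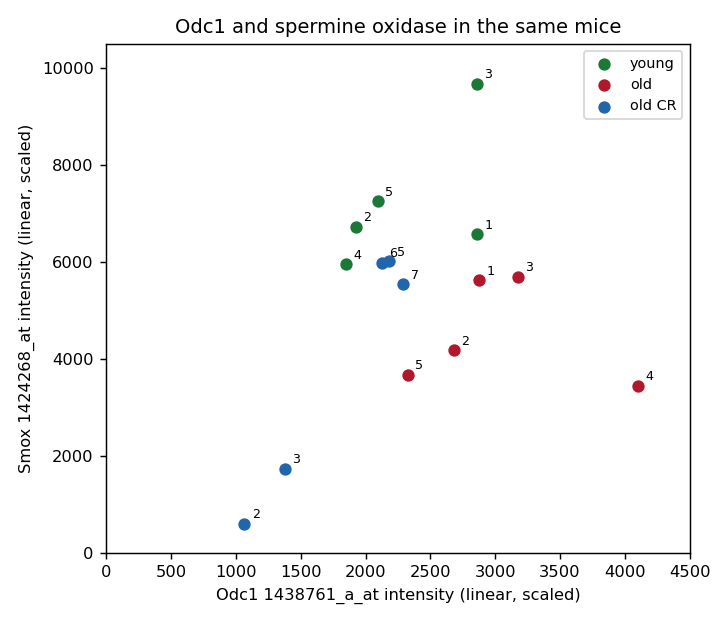
Smox intensity against Odc1 1438761_a_at intensity in each of 15 mice, by group, on linear axes with the replicate number beside each point. Old CR replicates 2 and 3 lie at 1066 and 1375 for Odc1 and 598 and 1738 for Smox, away from the other 13 mice.

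The genes most like 2 members over the 15 arrays were sought among the 11313 brighter probe sets by mean, as a description. For the brightest Odc1 probe set these were Rap1gds1 (r = 0.923), Eif4enif1 (0.920), Esf1 (0.907) and Kcmf1 (0.877). For the brightest Oaz2 probe set they were Pigq (r = 0.832), Tnmd (0.798), Coq7 (0.793) and Selenoh (0.791). All arrays share these genes' scaling, and the groups are mixed in each r.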

How the data were processed

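Biotin-labelled cRNA made from RNA of 15 gastrocnemius muscles was hybridized to MOE430A arrays by the authors, who scanned each array more than once and averaged the images. The deposited values are linear intensities, and each array has a mean of 500 once 2% is trimmed from both ends. MAS5 and RMA are named, without versions, in the processing notes of the submitters. The intensities were used as deposited, from 0.119 to 47253, and converted to log2 without a pseudocount.

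All 3 groups entered 1 fit of the 22626 probe sets other than 64 controls, made in R 4.3.3 by lmFit, contrasts and eBayes of limma 3.58.1 (prior degrees of freedom 2.17). The p-values were adjusted over all probe sets by the method of Benjamini and Hochberg, and an adjusted p under 0.05 was called. The fit was tested on simulated data. Confidence intervals are at 95%. Of the probe sets in the annotation, 20393 had a single symbol, 691 had several and 1606 had none. Promoters came from a RefSeq table, in which 6 of the 8 genes were matched. Tables were made in Python 3.11.15 (pandas 2.3.3, NumPy 2.4.6) and plots with Matplotlib 3.10.9.

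Groups came from the sample labels. Members, pathway lists and marker lists were chosen with earlier results of these data known. Named pathway genes were those called in a comparison and the oxidases and homologs of the list. Others were named after their values were seen. The 4 most alike genes were taken for a member. Alternatives were another filter, scaling, pseudocount, set of groups, variance model, array weights, a replicate block, a 3' minus 5' covariate, gene means and leaving out each array. Arrays are of separate mice, and their number limits the precision.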

Additional observations from a re-analysis of the deposited data

Results flagged for a closer look

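Oaz2 1426764_at in young mice was set apart by its lowest array. Young replicate 3 read 1013 and the other young mice 2622 to 3516. The gap to the nearest array was 0.764 of the range of the group, above the critical value of 0.71 for 5 arrays. In all, 36 groups of 5 were examined and 1 was set apart, where chance gives about 1 in 20. The same array had a mean 3' minus 5' difference of 0.06, within the range of the old mice, and its part in the Oaz2 value was not tested.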

How the results depend on the processing

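Of 900 recomputed differences of single probe sets, over 36 results, 839 kept their direction and side of the threshold, 20 lost the threshold, 7 passed it and 34 turned their sign. With age, the members called went from 0 to 1 (Oaz2 1426764_at) with the 11313 brighter probe sets alone, with a robust variance trend and with array weights, where the count over all probe sets also went from 60 to 572, 418 and 770, and were 0 to 1 when single arrays were left out, 1 being without young replicate 3. With CR in old mice, the 2 called members became 3 (Odc1 1438761_a_at added) with the brighter probe sets alone, median centering and the variance trend, 1 in a fit of 2 groups only, 0 with the replicate block, 0 with the 3' minus 5' covariate, 0 without old CR replicates 2 and 3 together (added after seeing the data), and 1 to 2 when single arrays were left out. In the block fit, old CR replicates 6 and 7, whose numbers no other group has, add nothing to the differences between groups. The old CR side of that fit rests on replicates 2, 3 and 5. Over all probe sets, the count called with single arrays left out was 0 to 1067 with age, 462 to 1657 with CR in old mice and 7 to 34 between old CR and young mice. With CR in old mice, Oaz2 1426764_at was called whichever single array was left out (limma adjusted p = 0.000123 to 0.0468). The 1 other pathway gene called became 0 with the block, the covariate and without both CR replicates, 3 when the probe sets of each gene were averaged (Ahcyl1, Mtap and Nfe2l2), and 0 to 1 when single arrays were left out.

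Replicate numbers did not pair the arrays, with correlations of deviations from -0.28 to 0.09. In the replicate block fit 4 of all probe sets were called with CR and 0 with age (3430 and 3068 at an unadjusted p under 0.05 in limma). With age, the covariate gave -0.067 for Oaz1 and -0.56 for Azin1 1450714_at. With CR in old mice, quantile normalization gave 0.0089 for Oaz2 1426763_at and -0.059 for Oaz1, median centering -0.042 and the block -0.071 for Oaz1. The covariate gave -0.037 for Oaz2 1426764_at and 0.52 for Azin1 1450714_at, and leaving out both CR replicates gave 0.40 for Smox. Against young mice, leaving out both gave 0.052 for Srm and 0.091 for Odc1 1427364_a_at. Array weights gave 0.0012 for Azin1 1422702_at and -0.0037 for Oaz2 1426764_at, the covariate -0.20 for the latter, the block 0.11 for Azin1 1422702_at and -0.060 for Oaz1, and quantile normalization -0.00079 for Oaz1. With single arrays left out, the ranges that crossed 0 were -0.048 to 0.056 for Oaz1 and -0.088 to 0.15 for Azin1 1450714_at with age, and -0.071 to 0.039 for Oaz2 1426763_at with CR. Against young mice they were -0.095 to 0.0040 for Srm, -0.16 to 0.074 for Azin1 1422702_at, -0.16 to 0.29 for Oaz2 1426764_at and -0.0010 to 0.10 for Oaz1. The cause of these changes was not tested. With 5 mice a group, the intervals of uncalled members leave room for changes within their bounds.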

Other observations

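Among the 11313 brighter probe sets, 340 (3.01%) had both old CR replicates 2 and 3 below all other 13 mice, as Odc1 and Smox did. For 1 of them the higher of these mice was under 50% of the lowest of the other 13, and for Smox it was at 50.5%. This count was made after the Odc1 and Smox values were seen and has no test.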
